A study of Drosophila melanogaster with 24 samples.

Results

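The gene described here is chinmo (chronologically inappropriate morphogenesis), followed over the 24 arrays of a study of sorted neurons from adult Drosophila melanogaster brains. Its members are the probe sets whose only gene symbol in the array's probe-to-gene table is chinmo. There are 3 of these among the 18952 probe sets on the array, named 1629484_s_at (the brighter one, by its mean over all arrays), 1628005_at (the second) and 1636985_s_at (the third). The gene was chosen by its measured ZT12 minus ZT0 differences in earlier results of these data, so its values at different times are given as a description, without a test. Its mean levels in different neuron kinds were not used to pick it, and those were tested. The mean level in per01 against wild-type large PDF neurons was tested as well. These means come from the same arrays as the time differences.

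The arrays fall into 10 groups of adult brain neurons, collected as GFP-positive cells. Small PDF neurons (yw flies, male and female) were sampled at ZT12 and at ZT0 with 2 arrays each. Large PDF neurons of per01 flies, all male, were sampled at ZT12 and ZT0 with 2 arrays each. Large PDF neurons of yw flies, male and female, were sampled at ZT0 (3 arrays), ZT6 (2), ZT12 (3) and ZT18 (2). General neurons marked through ELAV (yw flies, male and female) were sampled at ZT12 and ZT0 with 3 arrays each. ZT is zeitgeber time in hours under a cycle of equal light and dark, with lights on at ZT0 and off at ZT12 by convention. Each sample was a pool of cells from many brains, and the labels name neither the drivers that gave the GFP nor the ages of the flies. The allele per01 removes working PERIOD protein and with it the molecular clock. Since the per01 flies were male and the others of both sexes, genotype and sex cannot be told apart.

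chinmo encodes a nuclear protein with a BTB domain and C2H2 zinc fingers, of the family that also holds broad, fruitless and tramtrack. It is best known from development, where its level in newborn neurons sets which type of neuron a lineage makes, high in early-born and low in late-born cells. There it acts beside the RNA-binding proteins Imp and Syp, and the let-7 and miR-125 microRNAs lower it during metamorphosis. In the testis it acts downstream of JAK/STAT signalling and keeps somatic cells male. PDF neurons are brain clock neurons that release the peptide PDF, the small ones driving rhythms of rest and activity in darkness and the large ones promoting arousal by light. The symbol is annotated on chromosome arm 2L with 6 RefSeq transcripts.

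The unit is the log2 value of each probe set, as deposited after normalization with GCRMA, where a step of 1 is a factor of 2. Values under log2 5 were treated as mostly background. Medians over all probe sets were 3.13 to 3.44 on the 20 yw arrays and 2.57 to 2.59 on the 4 per01 arrays, so levels on per01 arrays sit lower as a whole. The peptide gene Pdf was at 15.8 to 15.9 on small PDF arrays, 16.2 on per01 arrays, 15.5 to 16.0 on wild-type large PDF arrays and 2.76 to 5.34 on ELAV arrays. The neuronal gene elav was at 11.27 or more on each of the PDF arrays. Precision is limited by the 2 or 3 arrays in a group. The replicates are biological per the labels, and p values measure only the spread between these samples.

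In small PDF neurons chinmo was near background at ZT12 and far above it at ZT0. On the brighter probe set the ZT12 arrays of small PDF neurons had 4.69 and 4.29, against 12.11 and 12.51 at ZT0. The ZT12 arrays both lay under log2 5 and the ZT0 arrays both above 12, with no overlap. The difference, ZT12 minus ZT0, was -7.82 ± 0.66 (log2, standard error from the limma fit), or at least 159-fold lower at ZT12 with values under 5 raised to 5. The second probe set had 5.94 and 4.17 at ZT12, against 11.97 and 11.96 at ZT0, a difference of -6.91 ± 0.79. With values under 5 raised to 5 the differences were -7.31 and -6.49. As a description of what the gene was chosen by, these were the lowest and the next lowest of the 8318 probe sets that passed the filter on low values, and the nearest other was the nuclear receptor gene Hr38 at -5.18. In pools of sorted cells, fewer cells with the transcript and less transcript per cell cannot be told apart.

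**Figure D1:**
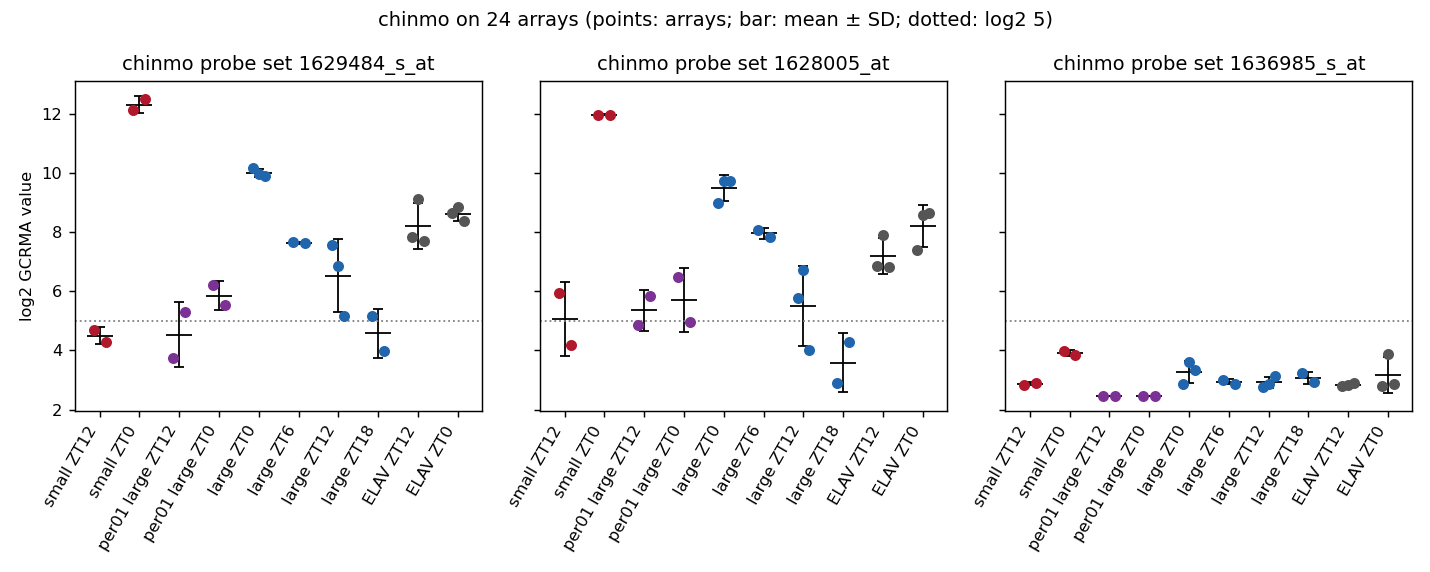
Log2 value of the 3 chinmo probe sets on each array (points), by group along the horizontal axis, with group mean and SD (black bars) and log2 5 dotted. The brighter and the second probe set are highest in small PDF neurons at ZT0 and low in small PDF neurons at ZT12, per01 neurons and large PDF neurons at ZT18, while the third is under log2 5 on every array.

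Wild-type large PDF neurons showed a level that was lower at each later time after lights-on. On the brighter probe set the arrays had 10.16, 9.97 and 9.9 at ZT0, then 7.67 and 7.62 at ZT6, then 7.56, 6.86 and 5.17 at ZT12, and 5.16 and 3.98 at ZT18. Each array at ZT0 was above each array at ZT6, ZT12 and ZT18, and the ZT18 arrays were below the lowest array of ZT12. Group means ± SD were 10.01 ± 0.13 (n = 3), 7.64 ± 0.04 (n = 2), 6.53 ± 1.23 (n = 3) and 4.57 ± 0.83 (n = 2). The replicates lay close together at ZT0 and ZT6 and spread out at ZT12 and ZT18.

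The second probe set followed the same course at other step sizes. It had 8.97, 9.72 and 9.74 at ZT0, 8.08 and 7.83 at ZT6, 5.77, 6.71 and 4.03 at ZT12, and 2.89 and 4.29 at ZT18. Its ZT12 and ZT18 arrays overlap, since the lowest ZT12 array (4.03) is under the higher ZT18 array (4.29). Both ZT18 arrays are under log2 5, and the level there was at least 22.2-fold below ZT0 with values under 5 raised to 5. With that floor the ZT18 minus ZT0 differences were -4.93 on the brighter and -4.48 on the second probe set, the lowest and the next lowest of the 8318 probe sets. This is a description, since the gene was chosen by differences from ZT0. With the same floor the ZT12 minus ZT0 differences ranked 12 and 8 from the lowest. Those of ZT18 minus ZT12 ranked 320 and 1135.

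By steps, the brighter probe set differed by -2.37 ± 0.61 from ZT0 to ZT6, by -1.12 ± 0.61 from ZT6 to ZT12 and by -1.95 ± 0.61 from ZT12 to ZT18. The same steps on the second probe set were -1.52 ± 0.73, -2.45 ± 0.73 and -1.91 ± 0.73. The last step ends in the background range, and with values under 5 raised to 5 it was -1.45 and -0.83. The probe sets differ on whether the first or the middle step was larger. The ZT12 minus ZT0 difference in large PDF neurons was -3.48 ± 0.54 on the brighter probe set and -3.97 ± 0.65 on the second probe set. It stood at -2.80 on the brighter probe set without ZT12 replicate 3, the lowest array of that group. The ZT18 minus ZT6 difference was -3.07 ± 0.66 and -4.37 ± 0.79. On the brighter probe set it was -3.66 without ZT18 replicate 1 and -2.48 without ZT18 replicate 2.

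A cosine curve with a period of 24 h, fitted to the 10 arrays of wild-type large PDF neurons, put the highest level at ZT2.76 on the brighter probe set and at ZT3.18 on the second probe set. The fitted distance from peak to trough was 4.64 and 5.90 on the log2 scale, and the curve accounted for a share of the variance of 0.649 and 0.778. The arrays themselves were highest at ZT0, so the fitted time depends on the shape assumed for the curve.

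**Figure D2:**
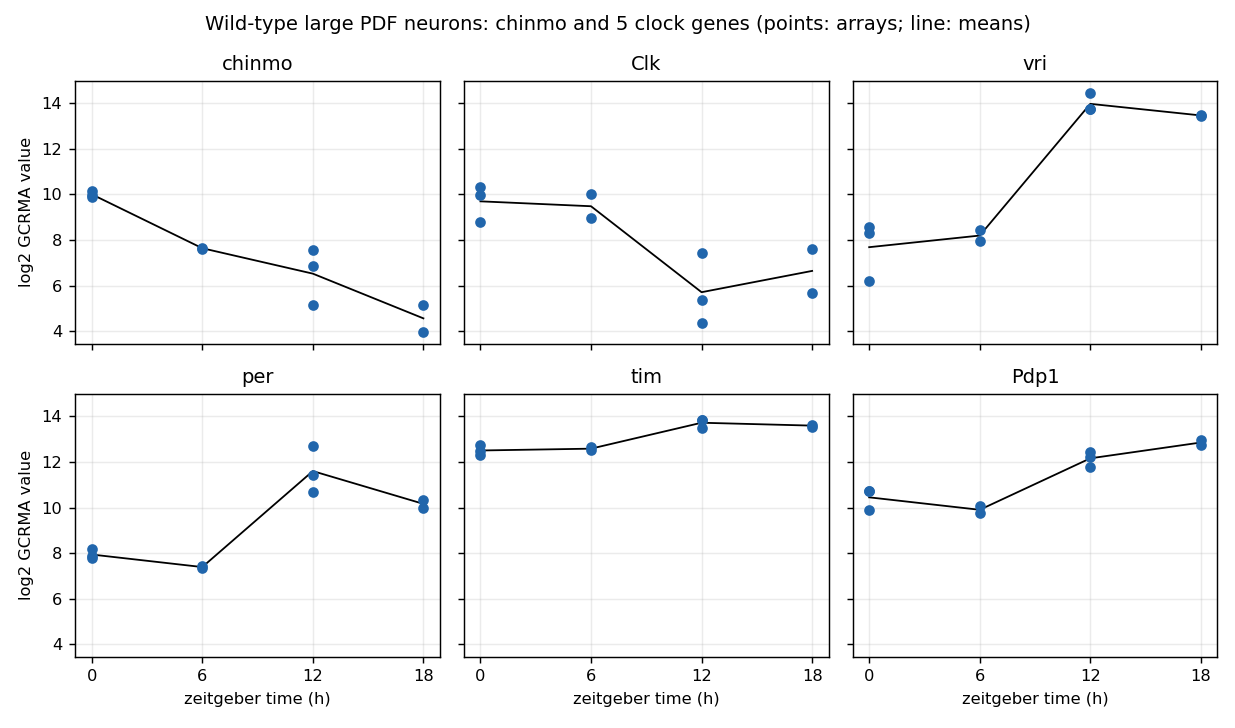
Log2 values in wild-type large PDF neurons at ZT0, ZT6, ZT12 and ZT18 (horizontal axis, hours) for chinmo (the brighter probe set) and 5 clock genes; points are arrays and lines join the means. The chinmo means are 10.01, 7.64, 6.53 and 4.57, while Clk is near 9.7 and 9.49 at ZT0 and ZT6 and lower afterwards, and vri is highest at ZT12.

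In large PDF neurons of per01 flies the level of chinmo was low at both times. On the brighter probe set the arrays had 3.76 and 5.31 at ZT12, against 6.2 and 5.52 at ZT0, a difference of -1.32 ± 0.66 without overlap, or -0.70 with values under 5 raised to 5. Leaving out ZT12 replicate 1 gave -0.54 and leaving out ZT12 replicate 2 gave -2.09. On the second probe set they had 4.87 and 5.83 at ZT12, against 6.48 and 4.95 at ZT0, a difference of -0.36 ± 0.79 with overlapping groups. The per01 time difference less the wild-type one was 2.16 ± 0.86 on the brighter probe set and 3.61 ± 1.03 on the second probe set. Without per01 ZT12 replicate 1 it was 2.94 on the brighter probe set, and without per01 ZT12 replicate 2 it was 1.39.

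In ELAV neurons chinmo was well above background at both times. On the brighter probe set it had 7.82, 9.12 and 7.7 at ZT12, against 8.63, 8.84 and 8.38 at ZT0, and the ranges overlapped. The difference was -0.41 ± 0.54, and on the second probe set it was -1.02 ± 0.65, with 6.85, 7.9 and 6.81 at ZT12 against 7.4, 8.57 and 8.64 at ZT0.

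Ordered by mean, both probe sets ran from small PDF neurons at ZT0 through large PDF neurons at ZT0 to ELAV neurons at ZT0, with no overlap between these neighbours. Below that, ELAV neurons at ZT12 and large PDF neurons at ZT6 came next, in an order that differs between the probe sets, and ELAV at ZT0 overlapped its next neighbour on both. Large PDF neurons at ZT12 (6.53 ± 1.23) and per01 neurons at ZT0 (5.86 ± 0.48, n = 2) overlapped as well. Large PDF neurons at ZT18, per01 neurons at ZT12 and small PDF neurons at ZT12 stood at 4.57, 4.54 and 4.49 on the brighter probe set, overlapped, and are not ordered.

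The third probe set did not pass the filter. Its values were 2.83 to 3.98 in small PDF neurons, 2.47 on the per01 arrays, 2.75 to 3.61 in wild-type large PDF neurons and 2.79 to 3.87 in ELAV neurons. In small PDF neurons it had 2.83 and 2.91 at ZT12, against 3.98 and 3.84 at ZT0, all in the background range. The files do not say which transcripts each probe set reads. The other probe sets differed by a median of 0.54 in absolute terms over the 24 arrays, with the brighter probe set higher on 16.

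Averaged over ZT0 and ZT12 with equal weight, chinmo was not called between the wild-type neuron kinds. Small PDF neurons stood at a mean of 8.40 and ELAV neurons at 8.41 on the brighter probe set, a difference of -0.01 ± 0.43 (limma adjusted p = 0.989). Large PDF neurons stood at 8.27 and ELAV neurons at 8.41, a difference of -0.15 ± 0.38 (limma adjusted p = 0.821). Small PDF neurons stood at 8.40 and large PDF neurons at 8.27, a difference of 0.13 ± 0.43 (limma adjusted p = 0.87). On the second probe set the same differences were 0.81 ± 0.51, -0.21 ± 0.46 and 1.02 ± 0.51 (limma adjusted p = 0.262, 0.789 and 0.185). Of all probe sets tested, 27.6% were called between small PDF and ELAV neurons, 24.4% between large PDF and ELAV neurons and 17.1% between small and large PDF neurons.

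These averages join opposite differences at the single times, which are given without a test. At ZT0, small PDF neurons stood 3.69 ± 0.61 and large PDF neurons 1.39 ± 0.54 above ELAV neurons on the brighter probe set. At ZT12 the differences from ELAV neurons were -3.72 ± 0.61 for small PDF neurons and -1.68 ± 0.54 for large PDF neurons. Small minus large PDF neurons was 2.30 ± 0.61 at ZT0 and -2.04 ± 0.61 at ZT12. On the second probe set the last of these was -0.45 ± 0.73, within its error.

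In per01 large PDF neurons the mean over ZT12 and ZT0 was 5.20, against 8.27 in wild-type large PDF neurons, and chinmo was lower by a called difference of -3.07 ± 0.43 (limma adjusted p = 8.17e-05). The second probe set was lower as well, by -1.96 ± 0.51 (limma adjusted p = 0.00865). At ZT0 the per01 arrays of the brighter probe set (6.2 and 5.52) were below each wild-type array (9.9 to 10.16), a difference of -4.15 ± 0.61. At ZT12 the difference was -1.99 ± 0.61 on the brighter probe set and -0.15 ± 0.73 on the second probe set. In this comparison 32% of all tested probe sets were called, 31% lower and 0.926% higher, with a median difference of -0.69. After all arrays were quantile normalized again, 4% were called lower and 3.51% higher, and chinmo stood at -2.12 ± 0.42 (limma adjusted p = 0.0047). With each array centred on its median it stood at -2.43 ± 0.43 (limma adjusted p = 0.00167).

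**Figure D3:**
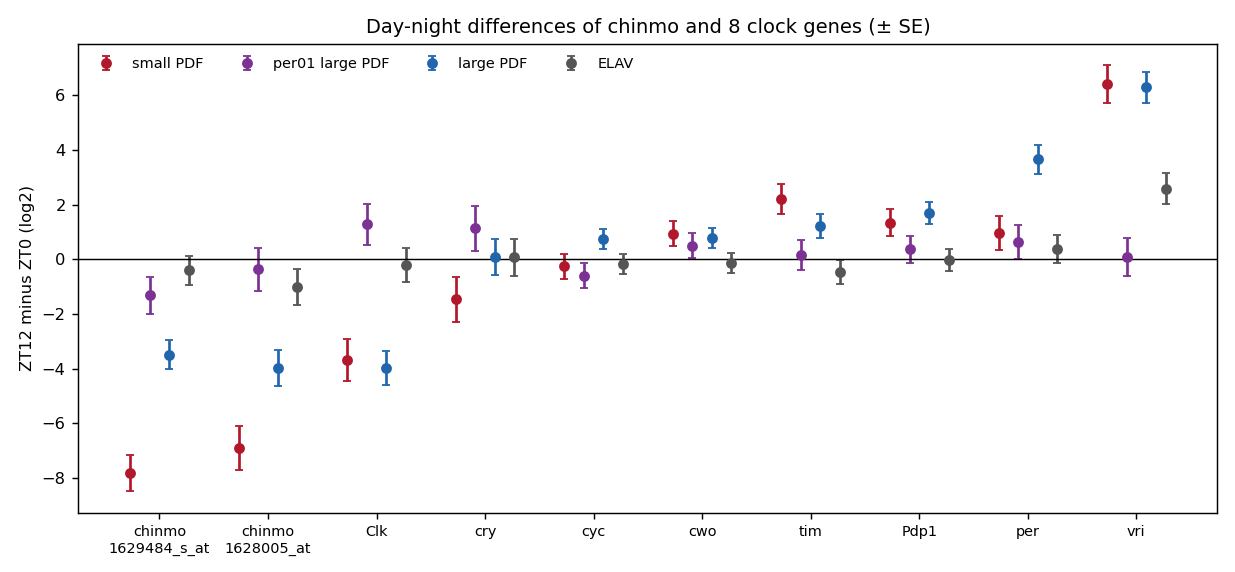
ZT12 minus ZT0 differences on the log2 scale (vertical axis, ± standard error) for 2 chinmo probe sets and 8 clock genes in small PDF, per01 large PDF, wild-type large PDF and ELAV neurons. For chinmo the differences are -7.82 and -6.91 in small PDF neurons and -3.48 and -3.97 in wild-type large PDF neurons, nearer 0 in per01 and ELAV neurons, and Clk is the clock gene called lower at ZT12 in both of these PDF kinds of yw flies.

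The core clock genes give a scale for these differences. In this clock the activators Clk and cyc drive per and tim, whose proteins shut them off, and vri and Pdp1, which feed back on Clk. Of the 8 genes, 2 rose and 1 fell at ZT12 against ZT0 in small PDF neurons, where 3.39% of all probe sets passed the test, 1.37% upward and 2.02% downward. In large PDF neurons 3 rose and 1 fell, where 2.19% were called, 0.986% higher and 1.2% lower. Clk fell in small PDF neurons (-3.68 ± 0.76, limma adjusted p = 0.00913) and in large PDF neurons (-3.99 ± 0.62, limma adjusted p = 0.00213), while vri rose by 6.41 ± 0.69 in small (limma adjusted p = 2.5e-05) and 6.29 ± 0.56 in large PDF neurons (limma adjusted p = 1.71e-05). The repressor gene per rose in large PDF neurons (3.66 ± 0.52, limma adjusted p = 0.00155) and stood at 0.96 ± 0.63 in small PDF neurons. In small PDF neurons the call of Clk was lost in 3 of 4 fits without 1 array and that of tim in 4 of 4, and in large PDF neurons that of Pdp1 in 5 of 6. No clock gene kept its call when only the groups of a time contrast were fitted.

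Between ZT0 and ZT6 chinmo and Clk took different courses in large PDF neurons. Clk had means of 9.70 ± 0.82 at ZT0 (n = 3), 9.49 ± 0.73 at ZT6 (n = 2), 5.72 ± 1.56 at ZT12 (n = 3) and 6.65 ± 1.38 at ZT18 (n = 2). vri had 7.69 ± 1.30, 8.20 ± 0.33, 13.98 ± 0.41 and 13.46 ± 0.03 at the same times. The Clk and vri means at ZT0 and ZT6 lay within their spread, while those of chinmo were 2.37 apart. For ZT18 against ZT6, vri (5.26) and Pdp1 (2.95) rose and 0 clock genes fell by limma (1 at an unadjusted p under 0.05), where 0.397% of all probe sets passed the test, 0.12% upward and 0.277% downward. That call of Pdp1 was lost in 4 of 4 fits without 1 array. In per01 neurons 0 clock genes were called by limma between ZT12 and ZT0 (0 at an unadjusted p under 0.05), against 0.012% of all probe sets, the 1 probe set called being lower. In ELAV neurons 0 were called (1 higher at an unadjusted p under 0.05), against 0.024% of all probe sets, 0.012% in each direction. In per01 neurons Clk was at 8.67 ± 0.16 at ZT12 and 7.39 ± 0.39 at ZT0, and vri at 13.30 and 13.22 (n = 2 each).

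**Figure D4:**
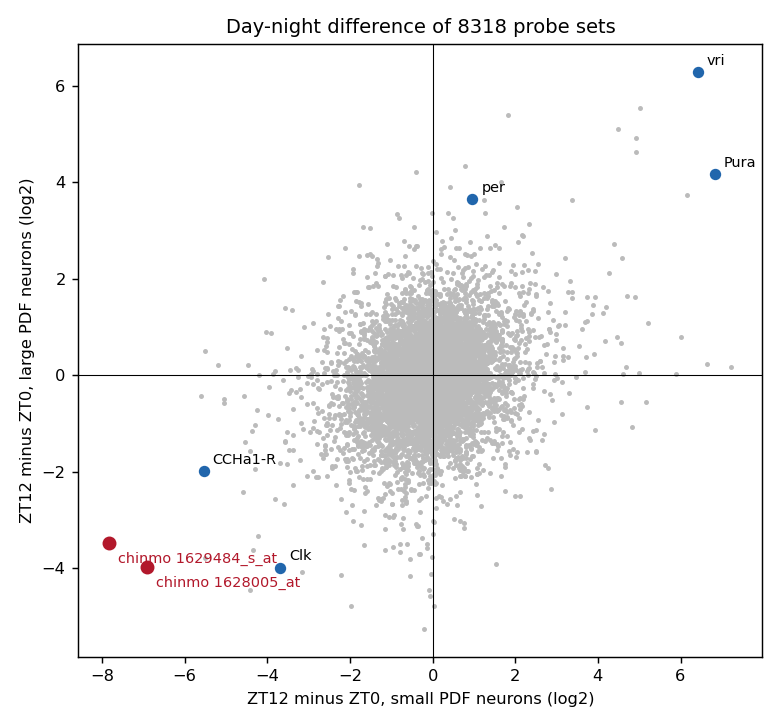
ZT12 minus ZT0 difference of each of the 8318 probe sets that passed the filter, in small PDF neurons (horizontal axis, log2) and in wild-type large PDF neurons (vertical axis, log2), with chinmo in red and 5 genes in blue. The chinmo probe sets lie at the far left, at -7.82 and -6.91, and at -3.48 and -3.97 on the vertical axis.

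Other genes with a BTB domain were read beside chinmo. This list holds 20 genes besides chinmo, of which 18 were measured by a probe set with 1 symbol and 17 passed the filter. In small PDF neurons 2 of the 17 were lower at ZT12, where 2.02% of all probe sets were, and 0 higher (1 higher at an unadjusted limma p under 0.05). These were br, the ecdysone-induced broad gene, and fru, the gene that directs male courtship circuits. br had 4.51 and 6.32 at ZT12, against 9.92 and 9.98 at ZT0 (-4.53 ± 1.01, limma adjusted p = 0.0165). fru had 4.87 and 6.22 at ZT12, against 9.33 and 9.6 at ZT0 (-3.92 ± 0.99, limma adjusted p = 0.0341). Both were high in small PDF neurons at ZT0 and low at ZT12 without overlap, as chinmo was. The call of br was lost in 3 of 4 fits without 1 array and that of fru in 4 of 4.

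In large PDF neurons br was at -1.38 ± 0.82 and fru at 0.88 ± 0.81, neither called, and mod(mdg4), a chromatin insulator gene, was higher at ZT12 (1.85 ± 0.44, limma adjusted p = 0.0318). That call was lost in 5 of 6 fits without 1 array. The median time difference over the 17 genes was -0.05 in small PDF neurons and -0.22 in large PDF neurons, against -0.01 and -0.03 over all probe sets tested.

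In level, the BTB genes differed between neuron kinds gene by gene. Between small and large PDF neurons 6 of 17 were higher in small PDF neurons and 2 lower, where 9.14% and 7.97% of all probe sets were. lov (jim lovell), known for roles in larval and adult behaviour, was lower in small PDF neurons (-4.64 ± 0.61, limma adjusted p = 4.93e-05). fru (2.19 ± 0.64) and mamo (1.43 ± 0.31) were higher. These are averages over ZT0 and ZT12, and the gap for fru was present at ZT0 only. Its ZT0 mean was 9.46 ± 0.19 for the small kind, against 4.87 ± 2.22 for the large kind. At ZT12 the fru means, 5.55 ± 0.95 (small) and 5.75 ± 0.88 (large), lay within their spread. Trl, which encodes GAGA factor, was in the background range in large PDF neurons and at 4.98 to 6.68 in small PDF neurons, and was called higher by 0.84 with values under 5 raised to 5 (limma adjusted p = 0.0278). The call of fru was lost in 4 of 10 fits without 1 array. Against ELAV neurons, 3 of 17 were higher in small PDF neurons and 0 lower (2 lower at an unadjusted limma p under 0.05), where 13.6% and 14% of all probe sets were called. Among these, mamo, which acts with chinmo in the timing of mushroom body neurons, stood 1.91 ± 0.31 above ELAV (limma adjusted p = 0.000161).

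In large PDF neurons against ELAV neurons 3 BTB genes were higher and 2 lower, where 11.9% and 12.5% of all probe sets were called, with lov (3.05 ± 0.54) and psq (2.09 ± 0.38) higher and fru (-3.58 ± 0.57) lower. In per01 against wild-type large PDF neurons 5 of 17 were lower, near the 31% of all probe sets, and 0 higher (1 at an unadjusted limma p under 0.05). Of those 5, BtbVII kept its call after the arrays were quantile normalized again (-0.98 ± 0.28, limma adjusted p = 0.0409).

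The next list holds genes that act beside chinmo in timing neuron birth and metamorphosis. Of 18 listed, 17 were measured and 13 passed the filter, and lin-28 (2.93 to 4.54 on the yw arrays) did not. In small PDF neurons 2 of 13 were lower at ZT12, against 2.02% of all probe sets, and 0 higher (0 at an unadjusted limma p under 0.05), against 1.37%. These were br and the ecdysone-response gene Eip93F. Eip93F, whose protein E93 drives the adult programme in metamorphosis, had 7.57 and 7.95 at ZT12, against 9.85 and 9.86 at ZT0 (-2.10 ± 0.50, limma adjusted p = 0.0257). That call was lost in 4 of 4 fits without 1 array. In large PDF neurons 0 of 13 were called in either direction by limma (1 higher and 1 lower at an unadjusted p under 0.05), with Eip93F at -1.24 ± 0.41.

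Imp, which keeps chinmo high in young neuroblast lineages, was at 9.79 to 10.71 in small PDF neurons at ZT12 and 10.42 to 10.64 at ZT0, a difference of -0.28 ± 0.74. Syp, its counterpart, was at -0.02 ± 0.60 there. In level Syp was lower than in ELAV neurons in both PDF kinds, by -1.62 ± 0.38 in small (limma adjusted p = 0.0041) and -1.07 ± 0.34 in large PDF neurons (limma adjusted p = 0.0294). The call in large PDF neurons was lost in 7 of 12 fits without 1 array. Of the 13 genes, 4 were higher and 1 lower in small PDF than in ELAV neurons, where 13.6% and 14% of all probe sets were. In large PDF against ELAV neurons 2 were higher and 1 lower, where 11.9% and 12.5% were. In per01 against wild-type neurons 4 of 13 were lower, near the 31% of all probe sets. These were babo, mamo, usp and EcR, and 0 of these kept the call after the arrays were quantile normalized again. The 1 higher gene, Eip93F, named after its values were seen, stood at 1.00 ± 0.32, a call lost in 4 of 10 fits without 1 array.

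JAK/STAT pathway genes and sex identity genes had almost no called time differences, and few of all probe sets had them. Of 13 JAK/STAT genes 10 were measured and 7 passed the filter, and the ligand genes upd1 and upd2 were at 2.46 to 3.3 on the yw arrays. Of the 7, 0 were called by limma between ZT12 and ZT0 in small PDF neurons (0 at an unadjusted p under 0.05) and 0 in large PDF neurons (1 higher at an unadjusted p under 0.05). Of all probe sets, 3.39% and 2.19% were called there. Against ELAV neurons the receptor gene dome (1.37 ± 0.36), the phosphatase gene Ptp61F (1.33 ± 0.32) and the SUMO ligase gene Su(var)2-10 (1.43 ± 0.37) were higher in small PDF neurons. In that contrast 3 of 7 were called higher and 1 lower, where 13.6% and 14% of all probe sets were. The repressor gene zfh1 was in the background range on each PDF array, at 3.55 or less, and at 5.47 to 9.74 in ELAV neurons. It was called lower in both PDF kinds, and with values under 5 raised to 5 the difference was -3.0 in each (limma adjusted p = 8.84e-05 in small and 3.42e-05 in large PDF neurons). The call of Su(var)2-10 was lost with values under 5 raised to 5 (limma adjusted p = 0.407). All 7 sex identity genes passed the filter, and fru was the 1 called with time in small PDF neurons, where 3.39% of all probe sets were. In large PDF neurons 0 were called with time, against 2.19%. In per01 neurons Sxl was lower (-0.67 ± 0.22), a call lost with the arrays centred on their medians (limma adjusted p = 0.951). dsx was at 5.19 or less on each yw array, in the background range on most.

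The genes whose pattern lay nearest to chinmo were ranked by Pearson correlation with the brighter probe set, as a description over points that share arrays and normalization. Over the 10 group means, among 6662 other genes, the highest were CG11509 (0.939), the ELAV-family RNA-binding gene fne (0.938), the Mediator subunit gene MED11 (0.909), CG1090 (0.907), Gs1l (0.899) and CG2059 (0.895). The most opposite were CG3713 (-0.864), CG10283 (-0.821) and the glucosyltransferase gene gny (-0.787). CG11509 stood at 3.85 and 3.88 in small PDF neurons at ZT12, against 6.32 and 9.05 at ZT0. In large PDF neurons the ZT12 minus ZT0 differences of the 6 were unlike. They were -2.56 ± 0.86 for CG11509, -1.85 ± 0.37 for CG1090 and -0.94 ± 0.32 for Gs1l. Those of fne (-0.08 ± 0.30) and CG2059 (-0.29 ± 0.74) were within their error, and MED11 was at -0.72 ± 0.58. Group means of MED11 (4.29 to 5.88) and gny (4.73 to 5.83) lay near the background range.

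Over the 24 arrays, the mean of each neuron kind was taken off so that only time and replicate differences remain. Another set then led, which shared CG1090 with the first. The highest were CCHa1-R, the receptor gene of the peptide CCHamide-1 (0.88), CG1090 (0.86) and the proline dehydrogenase gene slgA (0.857). Next came the glycerol phosphate dehydrogenase gene Gpdh1 (0.832), the sodium pump subunit gene nrv1 (0.824) and CG11191 (0.823). In large PDF neurons their ZT12 minus ZT0 differences were -1.98 ± 0.36 for CCHa1-R, -1.63 ± 0.32 for Gpdh1 and -1.17 ± 0.45 for nrv1. Those of CG11191 (-0.78 ± 0.37) and slgA (-0.57 ± 0.35) were smaller. The most opposite was Pura (-0.901), then CG15628 (-0.872) and 2mit (-0.855). Pura had 11.52 and 12.02 in small PDF neurons at ZT12, against 4.11 and 5.77 at ZT0, the opposite order to chinmo. CCHa1-R had 2.68 and 2.93 at ZT12, against 7.92 and 8.77 at ZT0, and was at most 3.32 in large PDF neurons from ZT6 on. Of the clock genes, Clk (0.73) was the most alike by this measure and vri (-0.79) and tim (-0.75) the most opposite.

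**Figure D5:**
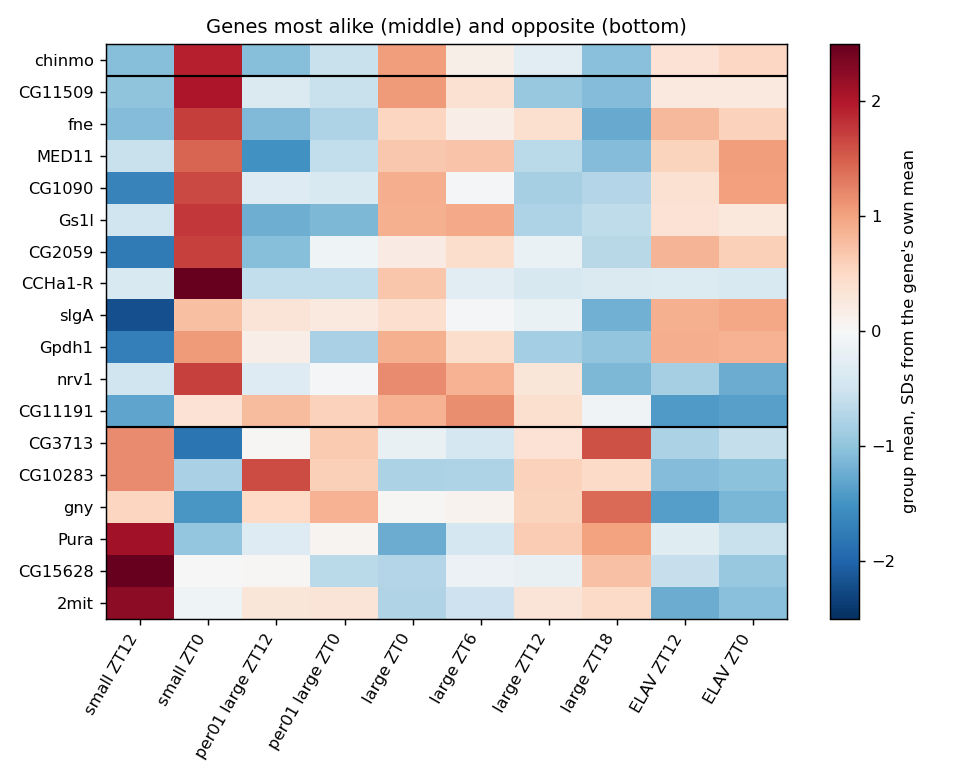
Group means of chinmo (the brighter probe set, top row), of the genes most alike (middle block) and most opposite (bottom block), as SDs from each gene's own mean over the 10 groups, red above and blue below. chinmo and the genes of the middle block are mostly red in small PDF neurons at ZT0 and blue at ZT12, and the bottom block runs the other way.

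Markers of other cells were read beside the chinmo values. The sum over 5 of 6 Kenyon cell markers, as log2, was 9.22 to 9.93 in small PDF neurons at ZT12 and 13.25 to 13.45 at ZT0, so it moved with chinmo. At ZT0 nearly all of that sum was sNPF, a peptide gene also known from small PDF neurons, at 8.04 and 8.42 at ZT12 and 13.34 and 13.19 at ZT0. The Kenyon cell marker ey was at 4.81 and 2.92 at ZT12 and 2.87 and 3.01 at ZT0, and at 2.83 to 8.47 in ELAV neurons. In small PDF neurons mub was above background, at 7.33 and 7.37 at ZT12 and 8.48 and 7.1 at ZT0. There prt was at 8.85 and 6.05 at ZT12 and 8.62 and 7.76 at ZT0. For dac the values were 6.05 and 3.81 at ZT12 and 3.59 and 5.67 at ZT0. The Kenyon sum was 13.16 to 14.21 in ELAV neurons, where chinmo was at 7.7 to 9.12. The part of Kenyon cell RNA in the day-night difference of chinmo was not tested.

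The glial sum over 6 of 7 markers was 6.84 to 7.5 at ZT12 and 7.63 to 8.62 at ZT0 in small PDF neurons, with repo at 3.45 or less. There nrv2 was at 5.89 to 6.86 at ZT12 and 7.16 to 7.7 at ZT0. Gs2 was at 3.44 to 4.15 at ZT12 and 4.77 to 6.95 at ZT0, so both were higher at ZT0, as chinmo was. The markers moody, wrapper and alrm were at 5.2 or less at both times. The glial sum reached 9.75 in large PDF neurons at ZT0, where Gs2 was at 9.53 on replicate 2. chinmo was at 9.97 on that array, between the 9.9 and 10.16 of the other ZT0 arrays. Gad1, which makes GABA, was at 7.11 on small PDF ZT0 replicate 1 and at 2.99 on replicate 2, with chinmo at 12.11 and 12.51. It was at 9.51 on large PDF ZT18 replicate 2, with chinmo at 3.98. Without these 3 arrays the ZT12 minus ZT0 difference of chinmo was -8.02 in small and -3.50 in large PDF neurons. In small PDF neurons that fit kept only replicate 2 at ZT0, an array with Gs2 at 6.95. Other transmitter markers differed from one another. VAChT was at 3.2 to 3.29 at ZT12 and 5.18 to 5.41 at ZT0 in small PDF neurons, higher at ZT0 as chinmo was. SerT was at 5.2 to 7.57 at ZT12 and 3.98 to 4.88 at ZT0 there, and VGAT, ple, DAT and VGlut overlapped between the times. In small PDF neurons Vmat was at 7.05 to 9.7 at ZT12 and 2.43 to 2.55 at ZT0, against 14.58 to 14.83 in ELAV neurons. ChAT was at 2.63 to 6.9 and 2.49 to 7.93 at these times, and ChT at 4.49 to 7.73 and 5.68 to 7.81. The fit without 3 arrays kept the ZT12 arrays with high Vmat. Haemocyte sums over 6 markers were 7.08 to 10.03 at ZT12 and 6.93 to 8.42 at ZT0 in small PDF neurons, with Pxn alone at 6.33 to 9.94 and 5.89 to 8.17. Fat body sums over 7 markers were 7.47 to 8.15 at ZT12 and 9.01 to 9.27 at ZT0, with apolpp alone at 3.21 to 7.19 and 8.4 to 9.05. The part of these markers in the result was not tested. In per01 neurons the glial sum was 5.56 to 6.14, against 6.16 to 9.75 in wild-type large PDF neurons at ZT0 and ZT12. The fat body sum was 7.45 to 8.45 in per01 neurons, against 6.98 to 9.68 in wild type, and the haemocyte sum 11.12 to 11.5 against 10.91 to 12.1. Pxn alone was at 11.1 to 11.48 in per01 neurons and 10.85 to 11.35 in wild type. Col4a1 was at 2.44 to 2.73 in per01 neurons, against 4.23 to 10.37 in wild type. For vkg the values were 2.61 to 2.62, against 3.61 to 8.66. Of the 3 haemocyte markers that passed the filter, limma called 2 lower in per01 neurons and 0 higher. Of all probe sets, 31% and 0.926% were. The haemocyte markers Hml, NimC1 and He were at 2.45 or less on the per01 arrays. The muscle sum over 3 of 5 markers was 4.2 to 5.36 in per01 neurons, against 5.19 to 7.08 in wild type. The sum over 3 of 5 sex markers, all of them yolk protein genes (Yp1, Yp2 and Yp3), was 4.21 to 5.91 in per01 neurons, against 5.3 to 9.18 in wild type. These genes are also part of the fat body sum, and the other sex markers, roX1 and roX2, were not measured. The part of these markers in the lower chinmo level was not tested.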

How the data were processed

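The deposited log2 values came from the authors' GCRMA run, and the submitters' processing notes name R 2.6. This method adjusts background by probe sequence and equalizes the distributions of arrays. The labels do not say which arrays shared a run. RNA was amplified in 2 rounds of T7 transcription per the labels, and the depth of an array is not a count. Of 18952 probe sets, 183 controls were removed and those with log2 of at least 5 on at least 2 arrays kept (8318, of which 7217 carried 1 symbol). limma 3.58.1 in R 4.3.3 fitted a mean for each of 10 groups (14 residual and 3.62 prior degrees of freedom), with p values adjusted by Benjamini and Hochberg over all probe sets and a threshold of 0.05. The fit was tested on simulated data. A gene stands for its brightest probe set. From each list up to 4 called genes were named in a contrast, and the 6 most alike and 3 most opposite genes by correlation. The members and lists were chosen with earlier results of these data known. Replicate numbers did not pair arrays. Alternatives changed the filter, floor, normalization, fitted groups, variance model, weights, block and arrays.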

Additional observations from a re-analysis of the deposited data

How the results depend on the processing

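The call of chinmo as lower in per01 than in wild-type large PDF neurons held in 11 other settings (adjusted p from 3.38e-05 to 0.00865, limma) and in 10 fits without 1 array (-3.46 to -2.68). The differences between wild-type neuron kinds were uncalled in each setting and changed sign in some. Small PDF minus ELAV was 0.24 with values under 5 raised to 5, 0.81 on the second probe set, 0.088 without the 3 arrays with the highest Gad1 or Gs2, and -0.14 to 0.21 without 1 array. Small minus large PDF was -0.14 with the replicate block and -0.21 to 0.39 without 1 array, and large PDF minus ELAV was -0.40 to 0.19. The time differences moved by more than the residual SD of the fit (0.691) on the second probe set, to -6.91 in small PDF neurons, -0.36 in per01 neurons, -4.37 for ZT18 minus ZT6 and 3.61 for per01 less wild type. Without 1 array the per01 time difference was -2.09 to -0.54 and that last one 1.39 to 2.94. The causes were not tested. Leaving out all per01 arrays, and the 3 arrays above, were chosen after seeing the data. The third probe set gave no fit, since it did not pass the filter. Deviations of same-numbered arrays correlated at -0.096 to 0.139 between groups, so the numbers pair no arrays. The replicate block changed the calls of the contrast between per01 and wild type to 2412 from 2659, and the time call of mod(mdg4) in large PDF neurons was lost with it (adjusted p = 0.0517, limma), as were 3 level calls of the gene lists, of CG8924 between large PDF and ELAV and between small and large PDF neurons, and of babo between small PDF and ELAV neurons. Depth is limited by signal over background, since values under log2 5 have no order.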
